A study of Mus musculus with 9 samples.

Results

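The genes described here are 37 cell cycle and DNA replication genes of the mouse, chosen by name among the 36492 genes of a 1-colour expression array. They cover the replicative helicase, the enzymes that make DNA precursors, the cyclins with their kinase Cdk1, and the kinases, ubiquitin ligase subunits and motors of mitosis. On the array they had 49 probes on 58 spots. Total RNA from macrophages of C57BL/6J mice was labelled with Cy3 and hybridised to 9 arrays, 3 for each of 3 groups. The first group was F4/80high tumour-associated macrophages (TAMs) and the second F4/80low TAMs, both from fibrosarcoma. The third was control peritoneal exudate cells (PECs), which the labels also call macrophages. No agent, transgene or age is stated for any group. The series calls the replicates biological without saying that each came from separate animals, so the p-values measure the spread between these 9 samples, and the number of arrays limits the precision.

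A cell that divides first loads the MCM helicase on its origins, then copies its DNA in S phase with nucleotides made by ribonucleotide reductase, thymidylate synthase and thymidine kinase. It then enters mitosis through Cdk1 with its A-type and B-type cyclins, separates its chromosomes on a spindle and destroys the cyclins through the anaphase-promoting complex. Transcripts of the S phase genes are driven mainly by E2F factors, and those of the mitotic genes by MuvB complexes that bind the cell cycle homology element, together with NF-Y on CCAAT boxes. Resident macrophages can renew themselves by division, while monocytes recruited to a tumour arise from precursors that divide in the bone marrow.

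Levels below are log2 of the background-subtracted spot signal minus the 75th percentile of the same array, so that 0 is the brightness of the 75th percentile spot. Between 36.1% and 38.3% of the spots of each array were well above background by the scanner software's own flag, and no spot was saturated. That 75th percentile was an intensity of 53.5 to 97.3 over the arrays. A probe was tested if that flag was set on all 3 arrays of at least 1 group, and the brightest such probe stood for its gene. Of the 37 genes 29 could be tested, among 16462 genes in all. Of the 29, 19 were above background on all PEC arrays, and the other 10 entered the test only through their level in TAMs. The remaining 8 genes (Ccne2, Cdk1, Aurkb, Bub1, Kif11, Kif23, Kif2c and Cenpf) were not above background on all 3 arrays of any group. PEC replicate 1 shared slide 1 with all 6 TAM arrays, while PEC replicates 2 and 3 were on slide 2.

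The label of the sort was checked on Adgre1, the gene of F4/80. Its level was 6.21, 5.89 and 5.70 on the F4/80high arrays, 2.78, 3.44 and 2.45 on the F4/80low arrays, and 5.77, 5.71 and 6.17 on the PEC arrays. The 12 macrophage markers were all above background on every F4/80high and PEC array, and 11 of them on every F4/80low array. Their summed linear level was 1516 to 2400 in F4/80high TAMs, 620 to 868 in F4/80low TAMs and 1069 to 1369 in PECs. F4/80low TAMs also carried 11 of 11 neutrophil markers above background on each array. On the F4/80high arrays 10, 7 and 8 were above it, and on the PEC arrays 5, 6 and 5. The summed linear level of these markers was 230.2 to 336 in F4/80high TAMs, 1875 to 8353 in F4/80low TAMs and 123 to 169 in PECs. All 5 monocyte markers on the array were above background in F4/80low TAMs, with 4, 4 and 5 on the F4/80high arrays and 3, 3 and 2 on the PEC arrays. These markers summed to 5.87 to 9.44 in F4/80high TAMs, 37.9 to 127 in F4/80low TAMs and 1.81 to 3.64 in PECs. T cell markers summed to 13.3 to 17.8 in F4/80high TAMs, 29.1 to 57.3 in F4/80low TAMs and 8.51 to 13.5 in PECs. NK cell markers summed to 1.75 to 2.27 in F4/80high TAMs, 16.2 to 34.5 in F4/80low TAMs and 1.20 to 1.65 in PECs. Fibroblast markers summed to 10.8 to 19.1 in F4/80high TAMs, 15.0 to 24.4 in F4/80low TAMs and 4.72 to 10.7 in PECs. Of these 12 markers 5 were above background on each F4/80high and each PEC array, and 8, 7 and 7 on the F4/80low arrays. Lum, Pdgfra, Pdgfrb and Postn were not above background on any array. The B cell genes Cd79a, Pax5 and Ebf1 were not above background on any array, while of Cd79b and Ms4a1 1 was above it on F4/80low replicate 2 and PEC replicate 3, and 2 on F4/80low replicate 3 and PEC replicate 2.

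A gene that entered the test only through its TAM level was selected for a higher level in a TAM subset. For Tk1, Kif20a and Top2a that subset was F4/80high alone. The genes above background on all PEC arrays are therefore given first. Among the genes above background on all PEC arrays were 10 of the mitotic genes from Plk1 to Cenpe. Of these 8 were called higher in F4/80high TAMs than in PECs and 5 in F4/80low TAMs, with 0 lower. Of the 6 MCM helicase genes 1 was called higher for the F4/80high subset and 0 for the F4/80low subset, with 0 lower. A call is an adjusted p of at most 0.05 by limma with Benjamini-Hochberg adjustment over all genes. Of all 19 such genes, 10 were called higher in F4/80high TAMs than in PECs and 0 lower, where 20.4% and 31.1% of the 14754 genes above background on all PEC arrays were called higher and lower. In F4/80low TAMs 5 of the 19 were called higher and 1 lower, where 16.6% and 32.5% of those genes were. The median log2 fold change of the 19 was 1.10 in F4/80high TAMs against PECs, beside -0.12 for those genes, and 0.95 in F4/80low TAMs against PECs, beside -0.22. Over all 29 tested genes, of which 10 were selected through their level in TAMs, the counts below are a description.

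In F4/80high TAMs 20 of the 29 tested genes were called higher than in PECs and 0 lower. Among all genes tested, 25% were called higher and 28% lower in that comparison. In F4/80low TAMs 14 of the 29 were called higher than in PECs and 1 lower, where 22.7% of all genes were called higher and 29.2% lower. In 21 of the 29 genes every F4/80high array lay above every PEC array and in 0 below, where 31.2% and 34% of all genes did so. In 13 every F4/80low array lay above every PEC array and in 1 below, where 26% and 33.2% of all genes did so. The median log2 fold change of the 29 genes was 2.23 in F4/80high TAMs against PECs, beside 0.00 for all genes, and 2.04 in F4/80low TAMs against PECs, beside -0.09 for all genes. With normexp background correction the medians of the 29 were 1.04 and 0.98, and without F4/80low replicate 1 that of F4/80low TAMs against PECs was 1.13. Both comparisons use the same 3 PEC arrays. Centring each array on its median instead of its 75th percentile moved the median log2 fold change of all genes against PECs to -0.16 for the F4/80high subset and to -0.56 for the F4/80low subset, and 20 and 12 of the 29 genes were then called higher and 0 and 2 lower. Of all calls against PECs in F4/80low TAMs, 43.8% were higher as reported and 22.1% with that centring. In bulk RNA, fewer dividing cells and less transcript in each dividing cell cannot be told apart.

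The slide moves with these counts. With the slide as a block, which rests the comparison on PEC replicate 1 for the contrast with the TAM arrays, 4 genes remained called higher in F4/80high TAMs (Tyms, Mcm6, Ccne1 and Ccnb2), and Ccnb2 and the lower Pcna remained in F4/80low TAMs. Of all genes 16.5% were then called higher and 17.7% lower in F4/80high TAMs, with 13.4% and 16.4% for the F4/80low subset, so the 13.8% and 3.45% of the 29 genes called higher did not exceed the share of all genes. When only the 7 arrays of slide 1 were fitted, which lends the spread of the TAM arrays to its 1 PEC array, 3 genes (10.3%) were called higher and 0 lower in F4/80high TAMs, where 13.7% and 16.9% of all genes were. In F4/80low TAMs 1 was called higher and 1 lower (3.45% each), where 11% and 14.7% of all genes were. The median log2 fold changes of the 29 genes against PECs within slide 1 were 1.69 for the F4/80high subset and 1.21 for the F4/80low subset.

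**Figure D1:**
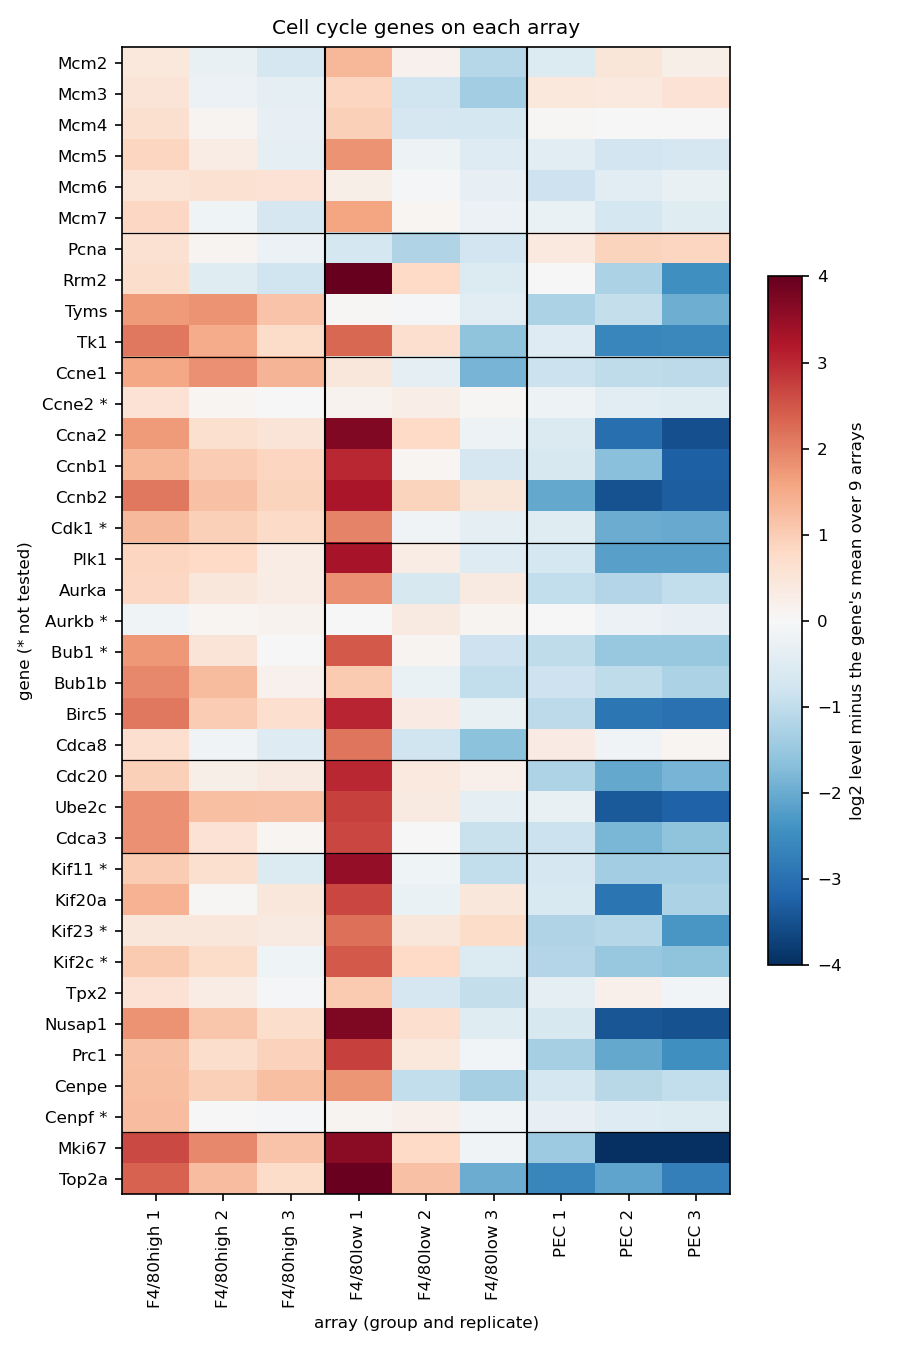
Each row is one of the 37 genes and each column one array, in the order F4/80high TAMs, F4/80low TAMs and PECs. Colour gives the log2 level minus the gene's mean over the 9 arrays, horizontal lines separate the roles from MCM helicase at the top to Mki67 and Top2a at the bottom, and an asterisk marks the 8 genes not tested. The column of F4/80low replicate 1 is the reddest, and PEC replicates 2 and 3 are the bluest in the mitotic rows.

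The promoters of the 37 genes were read for the motifs named above. RefSeq windows from 250 bases before to 50 bases after the start, on GRCm38.p6, were found for 31 of the 37 genes. The motifs were searched on both strands: TTTGAA for the cell cycle homology element, CCAAT for the CCAAT box, and TTTGGCGC, TTTCCCGC, TTTCGCGC or TTTGCCGC for an E2F site. A gene was counted if any of its windows held the motif. TTTGAA was found for 17 of the 31 genes (54.8%), against 20.2% of all 27025 genes. It was found for 16 of 21 later genes, all those listed after the E-type cyclins (76.2%), and for 1 of 9 replication genes (11.1%). CCAAT was found for 25 of the 31 genes (80.6%), against 41.1% of all genes. An E2F site was found for 5 of the 31 (16.1%), against 2.6% of all genes, and 4 of these 5 were replication genes. A match is a description of the letters and not of a bound site. The stretches below run from 150 bases before to 12 bases after the start of the window's transcript, which for Mki67, Prc1 and Mcm5 is not the outermost start of the gene. They were picked as examples, 4 mitotic genes that were higher in both TAM subsets, followed by 2 helicase genes of which one, Mcm5, was called in neither. Other genes of these kinds read differently. Birc5 and Nusap1, also called higher in both subsets, held none of the motifs in their windows, and Ccnb1 held CCAAT but no TTTGAA. The helicase gene Mcm2 held TTTGAA and no E2F site. Capitals mark the motif matches. The positions are chr7:135716368-135716529 on the minus strand for Mki67, chr9:70421543-70421704 on the minus strand for Ccnb2, chr2:164769779-164769940 on the plus strand for Ube2c, and chr7:80294301-80294462 on the plus strand for Prc1. Those of the helicase genes are chr8:75109359-75109520 on the plus strand for Mcm5 and chr1:128359694-128359855 on the minus strand for Mcm6.
Mki67: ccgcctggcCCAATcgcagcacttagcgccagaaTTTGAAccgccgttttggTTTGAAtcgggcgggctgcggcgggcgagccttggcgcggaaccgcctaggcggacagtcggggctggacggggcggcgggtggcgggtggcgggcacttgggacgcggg
Ccnb2: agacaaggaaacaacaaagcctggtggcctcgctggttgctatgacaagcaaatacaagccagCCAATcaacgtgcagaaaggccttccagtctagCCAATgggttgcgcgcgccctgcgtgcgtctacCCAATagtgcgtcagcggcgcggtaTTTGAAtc
Ube2c: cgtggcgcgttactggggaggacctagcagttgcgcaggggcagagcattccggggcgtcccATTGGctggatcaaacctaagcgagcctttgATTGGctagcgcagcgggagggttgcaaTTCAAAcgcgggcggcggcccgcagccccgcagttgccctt
Prc1: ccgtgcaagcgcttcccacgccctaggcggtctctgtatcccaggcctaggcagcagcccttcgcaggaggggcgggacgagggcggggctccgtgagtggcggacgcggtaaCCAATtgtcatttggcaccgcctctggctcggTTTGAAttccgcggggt
Mcm5: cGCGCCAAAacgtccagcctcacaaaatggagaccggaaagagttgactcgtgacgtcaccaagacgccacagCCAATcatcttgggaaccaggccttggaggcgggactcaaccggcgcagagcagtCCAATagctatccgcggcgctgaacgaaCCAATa
Mcm6: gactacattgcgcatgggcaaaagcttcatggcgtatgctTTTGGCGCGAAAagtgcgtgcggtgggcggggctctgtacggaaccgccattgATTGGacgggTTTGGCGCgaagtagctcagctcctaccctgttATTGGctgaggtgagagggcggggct
The stretches of the 4 later genes each hold TTTGAA or its complement TTCAAA and at least 1 CCAAT box or its complement ATTGG. None of these 4 holds an E2F site as spelled here. The Mcm5 and Mcm6 stretches hold E2F sites and CCAAT boxes and no TTTGAA. In Mcm6 the 2 E2F matches farthest from the start overlap.

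The MCM genes encode the 6 subunits of the replicative helicase, and all 6 were above background on every array. Mcm6 had levels of 5.62, 5.69 and 5.64 on the F4/80high arrays, 5.30, 5.01 and 4.74 on the F4/80low arrays, and 4.25, 4.62 and 4.78 on the PEC arrays. The F4/80high arrays lay close together and above the other 6, while F4/80low replicate 3 lay below PEC replicate 3. Mcm6 was higher in F4/80high TAMs than in PECs by 1.10 ± 0.20 (log2, SE, adjusted p = 0.00156), and by 0.47 ± 0.20 in F4/80low TAMs (adjusted p = 0.0775). The other helicase subunits did not pass the test in either TAM subset. Their log2 fold changes ran from -0.50 for Mcm3 to 0.88 for Mcm5 in F4/80high TAMs, and from -0.91 for Mcm3 to 1.00 for Mcm5 in F4/80low TAMs, against PECs. Mcm5 was 2.88, 2.32 and 1.63 on the F4/80high arrays, 3.83, 1.83 and 1.52 on the F4/80low arrays, and 1.58, 1.27 and 1.35 on the PEC arrays. Its F4/80high arrays all lay above the PEC arrays, yet its spread within the TAM groups left the adjusted p at 0.207 and 0.158. The signs of Mcm2 and Mcm4 against PECs depend on the normalisation or on single arrays and are given with the other settings.

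Pcna, the sliding clamp that holds the polymerase on DNA, was the only one of the 29 genes called lower in TAMs. Its levels were 6.39, 5.89 and 5.55 on the F4/80high arrays, 5.09, 4.58 and 5.02 on the F4/80low arrays, and 6.18, 6.69 and 6.65 on the PEC arrays. All F4/80low arrays lay below all others, and the F4/80high arrays overlapped the PEC arrays. Pcna fell by 1.61 ± 0.26 on the log2 scale in F4/80low TAMs against PECs (adjusted p = 0.000896), and the difference was -1.28 ± 0.38 within slide 1 (adjusted p = 0.0473). In F4/80high TAMs the difference from PECs was -0.56 ± 0.26 (adjusted p = 0.0943), which passed the threshold under normexp background correction, under quantile normalisation, in the deposited value table and without F4/80high replicate 1.

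Tyms, thymidylate synthase, had levels of 0.73, 0.82 and 0.16 on the F4/80high arrays, -0.94, -1.03 and -1.42 on the F4/80low arrays, and -2.25, -1.91 and -2.91 on the PEC arrays, of which 1 of 3 was above background. The 3 groups did not overlap. For Tyms, and for each other gene measured on only 1 PEC array, the size of the difference from PECs rests partly on PEC signals not well above background, so no linear fold is given. Tyms was higher than in PECs by 2.93 ± 0.29 in F4/80high TAMs (adjusted p = 4.1e-05) and by 1.23 ± 0.29 in F4/80low TAMs (adjusted p = 0.00688). Within slide 1 these differences were 2.82 ± 0.35 (adjusted p = 0.00153) and 1.11 ± 0.35 (adjusted p = 0.0562). Tk1, the thymidine kinase of dividing cells, had levels of 1.24, 0.61 and -0.14 on the F4/80high arrays, 1.43, -0.20 and -2.47 on the F4/80low arrays, and -1.41, -3.49 and -3.46 on the PEC arrays. F4/80low replicate 3 fell among the PEC arrays, and the F4/80high arrays were all above them. Tk1 was higher in F4/80high TAMs by 3.35 ± 0.92 (adjusted p = 0.0131), and the difference in F4/80low TAMs was 2.37 ± 0.92 (adjusted p = 0.0559). Rrm2, the regulated subunit of ribonucleotide reductase, was 0.78, -0.40 and -0.73 on the F4/80high arrays, 4.12, 0.89 and -0.47 on the F4/80low arrays, and 0.08, -1.19 and -2.39 on the PEC arrays. It overlapped between all groups and did not pass the test in either comparison with PECs.

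The cyclins of S phase and mitosis gave different orders of the groups. Ccne1, cyclin E1, which acts at the entry into S phase, was 2.94, 3.20 and 2.73 on the F4/80high arrays, 1.85, 1.00 and -0.49 on the F4/80low arrays, and 0.51, 0.36 and 0.35 on the PEC arrays. The F4/80high arrays lay above all others, and the F4/80low arrays lay on both sides of the PEC arrays. Ccne1 was higher in F4/80high TAMs than in PECs by 2.55 ± 0.48 (5.86-fold, adjusted p = 0.00185), and the difference in F4/80low TAMs was 0.38 ± 0.48 (adjusted p = 0.528). A second, dimmer Ccne1 probe differed by 3.14 and 0.79 in the same comparisons. Ccne2 was not above background on any array.

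Ccnb2, a B-type cyclin of mitosis, was 2.53, 1.60 and 1.32 on the F4/80high arrays, 3.67, 1.31 and 0.91 on the F4/80low arrays, and -1.64, -3.06 and -2.87 on the PEC arrays. All 6 TAM arrays lay above all PEC arrays, and PEC replicate 1 was the highest of the PECs and the only one above background. Ccnb2 was higher than in PECs by 4.34 ± 0.70 in F4/80high TAMs (adjusted p = 0.000736) and by 4.49 ± 0.70 in F4/80low TAMs (adjusted p = 0.000745). Within slide 1 the differences were 3.45 ± 1.03 (adjusted p = 0.0432) and 3.60 ± 1.03 (adjusted p = 0.0428). Ccnb2 was the only gene of the 29 that stayed called higher in both TAM subsets with the slide as a block. Ccna2, cyclin A2, was higher by 3.33 ± 1.01 in F4/80high TAMs (adjusted p = 0.0208) and by 3.81 ± 1.01 in F4/80low TAMs (adjusted p = 0.0118). Ccnb1 was higher by 2.93 ± 0.91 (adjusted p = 0.0227) and by 2.67 ± 0.91 (adjusted p = 0.0342). Its F4/80low replicate 3, at -1.43, overlapped PEC replicate 1, at -1.40. Both genes were above background on 1 of 3 PEC arrays, replicate 1. Cdk1, the kinase these cyclins activate, was above background on 2 of 3 F4/80high, 1 of 3 F4/80low and 0 of 3 PEC arrays and was not tested.

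**Figure D2:**
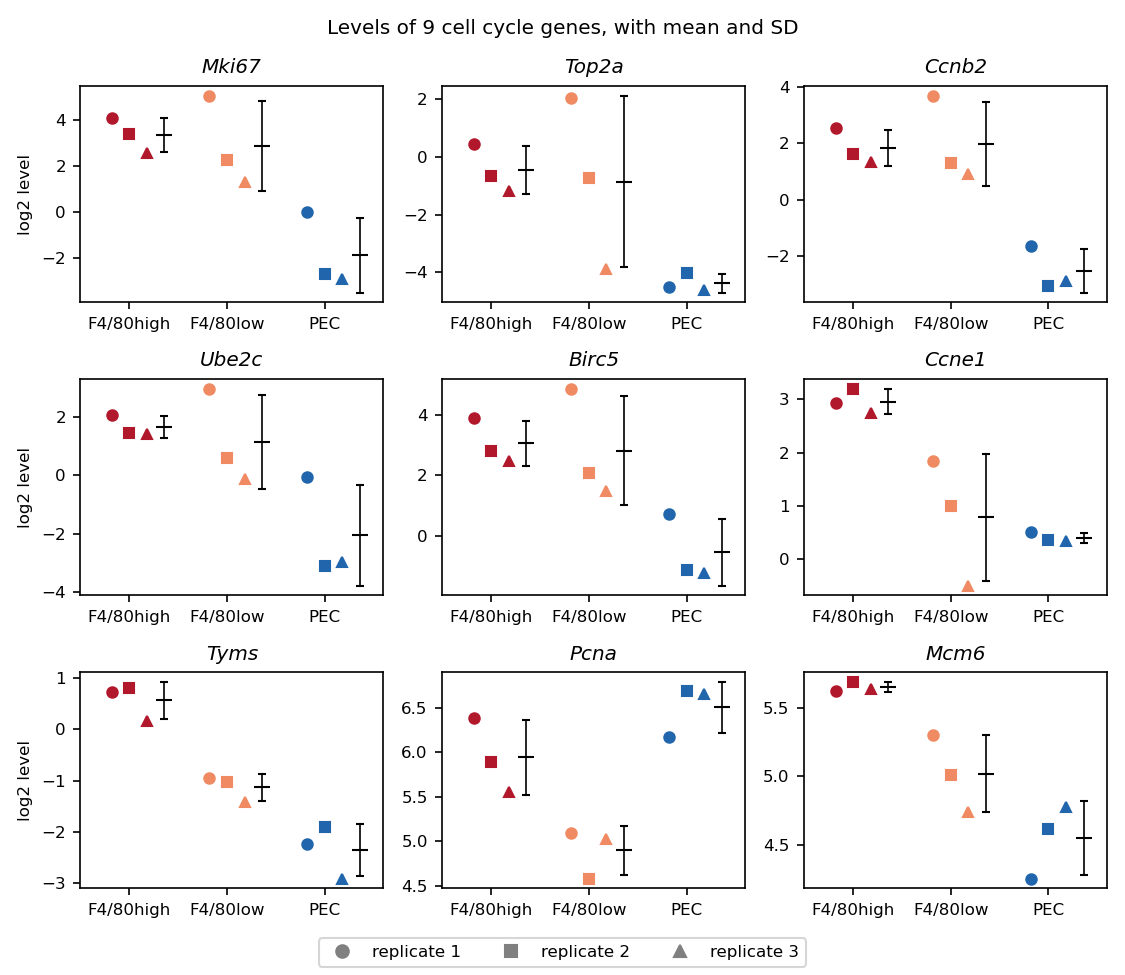
The log2 level relative to each array's 75th percentile is shown for 9 genes, with F4/80high TAMs, F4/80low TAMs and PECs from left to right and a symbol for each replicate. Bars give mean and SD. In Mki67, Top2a, Ccnb2, Ube2c and Birc5 the circle of F4/80low replicate 1 is the highest point, in Tyms and Ccne1 the F4/80high arrays stand above the rest, and in Pcna the F4/80low arrays stand below the rest.

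Among the mitotic kinases, checkpoint and passenger genes, 4 of 5 tested genes were higher in F4/80high TAMs than in PECs, and 3 of 5 in F4/80low TAMs. Of all genes 25% and 22.7% were called higher in these comparisons. Birc5, survivin, a subunit of the chromosomal passenger complex, was 3.90, 2.80 and 2.46 on the F4/80high arrays, 4.85, 2.10 and 1.5 on the F4/80low arrays, and 0.75, -1.09 and -1.21 on the PEC arrays. Each TAM array lay above each PEC array. Birc5 was higher by 3.57 ± 0.86 in F4/80high TAMs (11.9-fold, adjusted p = 0.00682) and by 3.33 ± 0.86 in F4/80low TAMs (10.1-fold, adjusted p = 0.0102). The differences within slide 1 were 2.31 ± 1.22 (adjusted p = 0.196) and 2.07 ± 1.22 (adjusted p = 0.252). Plk1, the polo-like kinase of mitotic entry, was higher by 2.34 ± 0.85 (adjusted p = 0.0426) in F4/80high TAMs and by 2.71 ± 0.85 (adjusted p = 0.0244) in F4/80low TAMs. Aurka, the kinase of the spindle poles, was higher by 1.56 ± 0.50 in each subset (adjusted p = 0.0263 and 0.027).

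Bub1b, a kinase-like protein of the spindle checkpoint, was 1.09, 0.44 and -0.66 on the F4/80high arrays, 0.23, -1.09 and -1.81 on the F4/80low arrays, and -1.65, -1.85 and -2.10 on the PEC arrays. The F4/80high arrays lay above the PEC arrays, and F4/80low replicate 3 lay among them. Bub1b was higher by 2.16 ± 0.54 in F4/80high TAMs (adjusted p = 0.0084), and the difference was 0.98 ± 0.54 in F4/80low TAMs (adjusted p = 0.156). Cdca8, borealin, belongs to the same complex as Birc5 but was 2.55, 1.75 and 1.38 on the F4/80high arrays, 4.03, 1.08 and 0.23 on the F4/80low arrays, and 2.20, 1.75 and 1.97 on the PEC arrays. The groups overlapped, and neither of its probes passed the test in either comparison with PECs. Aurkb, the kinase of that complex, was not above background on any array. Bub1 was above background on 2 of 3 F4/80high, 1 of 3 F4/80low and 0 of 3 PEC arrays.

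All 3 genes around the anaphase-promoting complex were higher in F4/80high TAMs than in PECs, and 2 of 3 in F4/80low TAMs. Of all genes 25% and 22.7% were called higher, and Ube2c entered the test only through its TAM level. Ube2c, its ubiquitin-conjugating enzyme, was 2.09, 1.45 and 1.42 on the F4/80high arrays, 2.97, 0.61 and -0.12 on the F4/80low arrays, and -0.06, -3.11 and -2.99 on the PEC arrays, of which only replicate 1 was above background. F4/80low replicate 3 lay just below PEC replicate 1, and the F4/80high arrays did not overlap the PECs. Ube2c was higher by 3.70 ± 0.92 in F4/80high TAMs (adjusted p = 0.00818) and by 3.20 ± 0.92 in F4/80low TAMs (adjusted p = 0.017). Within slide 1 the differences were 1.71 ± 1.05 (adjusted p = 0.26) and 1.21 ± 1.05 (adjusted p = 0.434). A second Ube2c probe differed from PECs by 4.84 and 4.63. Cdc20, the activator that starts anaphase, was higher by 2.22 ± 0.65 in F4/80high TAMs (adjusted p = 0.0173) and by 2.92 ± 0.65 in F4/80low TAMs (adjusted p = 0.0051). Cdca3, which promotes entry into mitosis, was higher by 2.26 ± 0.82 in F4/80high TAMs (adjusted p = 0.0425), and the difference in F4/80low TAMs was 2.04 ± 0.82 (adjusted p = 0.0629).

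Of the motors, spindle and kinetochore genes 4 of 5 tested were higher in F4/80high TAMs than in PECs, and 3 of 5 in F4/80low TAMs. Of all genes 25% and 22.7% were called higher. Kif20a and Nusap1 entered the test only through their TAM level. Prc1, which bundles microtubules at the midzone of the spindle, was 1.64, 1.19 and 1.40 on the F4/80high arrays, 3.20, 0.91 and 0.35 on the F4/80low arrays, and -0.86, -1.56 and -1.99 on the PEC arrays. It was above background on all 9 arrays, and no TAM array overlapped a PEC array. Prc1 was higher by 2.88 ± 0.63 in F4/80high TAMs (7.35-fold, adjusted p = 0.00441) and by 2.96 ± 0.63 in F4/80low TAMs (7.76-fold, adjusted p = 0.00428). Nusap1, a spindle microtubule binder, was higher by 3.71 ± 1.06 (adjusted p = 0.016) and 3.82 ± 1.06 (adjusted p = 0.0147), and Kif20a, a kinesin of cytokinesis, by 2.23 ± 0.80 (adjusted p = 0.0398) and 2.56 ± 0.80 (adjusted p = 0.0238). Cenpe, the kinesin of the kinetochore, was 2.44, 2.20 and 2.44 on the F4/80high arrays, 2.99, 0.25 and -0.09 on the F4/80low arrays, and 0.52, 0.12 and 0.25 on the PEC arrays. F4/80low replicate 1 was the highest array, and the other two F4/80low arrays lay at the PEC level. Cenpe was higher in F4/80high TAMs by 2.06 ± 0.66 (adjusted p = 0.0262) and differed by 0.75 ± 0.66 in F4/80low TAMs (adjusted p = 0.364). Without F4/80low replicate 1 that difference was -0.22 ± 0.21. Tpx2, which activates Aurka on the spindle, did not pass the test in either subset, at 0.36 ± 0.47 and -0.10 ± 0.47. Kif11, Kif2c and Cenpf were above background on at most 1 array of any group, and Kif23 on 2 arrays of each TAM group and on 0 PEC arrays.

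Mki67, the gene of the proliferation marker Ki-67, had the largest log2 fold change of the 29 genes in both comparisons with PECs. Its levels were 4.08, 3.39 and 2.58 on the F4/80high arrays, 5.05, 2.25 and 1.31 on the F4/80low arrays, and 0.01, -2.69 and -2.91 on the PEC arrays. Among the PECs only replicate 1 was above background, and it lay well above the other PEC arrays while staying below every TAM array. Mki67 was higher by 5.21 ± 1.02 in F4/80high TAMs (adjusted p = 0.00225) and by 4.73 ± 1.02 in F4/80low TAMs (adjusted p = 0.0043). Within slide 1 the differences were 3.34 ± 1.31 (adjusted p = 0.0989) and 2.86 ± 1.31 (adjusted p = 0.155). A second probe of Mki67 differed from PECs by 5.43 and 4.91. Top2a, the topoisomerase that untangles chromosomes, was 0.46, -0.67 and -1.18 on the F4/80high arrays, 2.06, -0.74 and -3.89 on the F4/80low arrays, and -4.51, -4.03 and -4.63 on the PEC arrays, none of which had it well above background. Set against the lowest signals that were well above background, Top2a was at least 4.27-fold higher in F4/80high TAMs. In F4/80low TAMs, where 2 of 3 arrays measured it, it was at least 3.25-fold higher. These bounds were not tested. The limma fit compared the signals as measured, PEC signals included, with adjusted p = 0.0207 and 0.0329 for the 2 subsets. Without the filter on dim probes that fit gave adjusted p = 0.057 and 0.0541, past the threshold in neither.

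**Figure D3:**
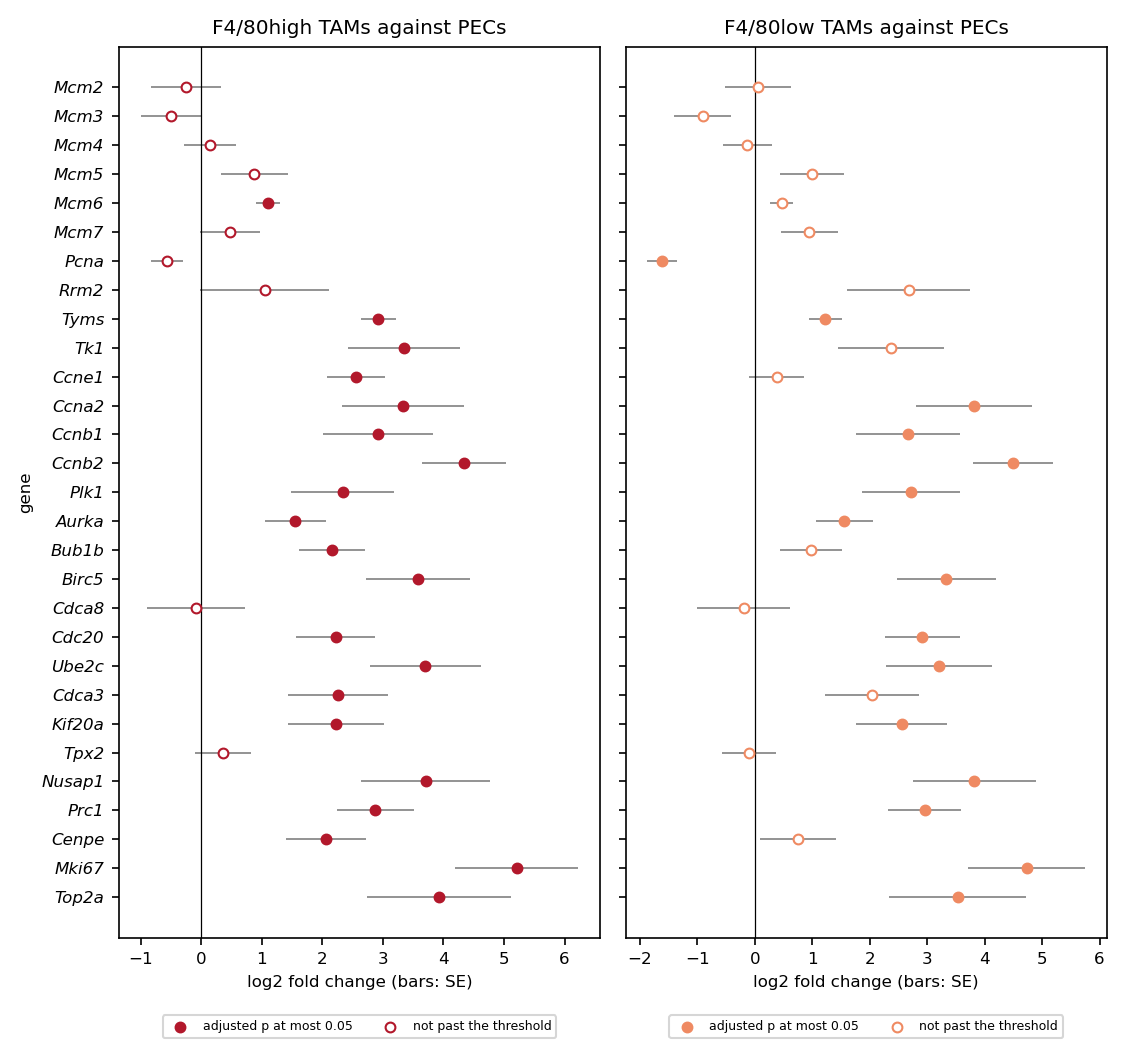
Points give the log2 fold change of each of the 29 tested genes against PECs, for F4/80high TAMs at left and F4/80low TAMs at right, with SE bars. Filled points have an adjusted p of at most 0.05. The MCM genes at the top lie between -0.91 and 1.10, Pcna lies left of 0, and Mki67 lies farthest to the right.

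The 2 TAM subsets were then set against each other. In F4/80high TAMs 4 of the 29 genes were called higher than in F4/80low TAMs and 0 lower, where 18.6% of all genes were called higher and 14% lower. The median log2 fold change of the 29 was 0.24, beside 0.08 for all genes. That median turned with single arrays, at 1.09 without F4/80low replicate 1, -0.48 without F4/80low replicate 3 and -0.15 without F4/80high replicate 1. With arrays centred on their median it was 0.56, the median of all genes was 0.40, and of all calls 75.9% were higher, beside 57.1% as reported. The genes called were Ccne1, higher by 2.17 ± 0.48 (4.5-fold, adjusted p = 0.0077), Tyms, by 1.70 ± 0.29 (3.25-fold, adjusted p = 0.00209), Pcna, by 1.05 ± 0.26 (2.07-fold, adjusted p = 0.0129), and Mcm6, by 0.63 ± 0.20 (1.55-fold, adjusted p = 0.0381). These 4 are 13.8% of the 29, below the share of all genes called higher. In these 4 of the 29 genes the F4/80high arrays lay above all F4/80low arrays, while in 0 they lay below, where 27% and 19.7% of all genes did so. None of the 13 tested mitotic genes, counted from Plk1 to Cenpe, nor Mki67 or Top2a, was called between the subsets. The log2 difference of Mki67 was 0.48 ± 1.02 and that of Ccnb2 -0.15 ± 0.70. Without F4/80low replicate 1 they were 1.57 ± 0.84 (adjusted p = 0.198) and 0.71 ± 0.48 (adjusted p = 0.308), and 11 of the 29 genes then had the opposite sign.

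The labels do not say whether same-numbered TAM arrays are paired. Residuals of same-numbered F4/80high and F4/80low arrays correlated at 0.233, 0.171 and 0.134 over genes. Those of F4/80high and F4/80low arrays of unlike number correlated at -0.168 to 0.0226. Residuals are taken from the group mean, so the values of like and unlike number depend on each other. The residuals of F4/80high replicate 3 and PEC replicate 2, of unlike number, correlated at 0.133. The block below takes the pairing as an assumption. With the replicate number as a block on the TAM arrays alone, Bub1b was called higher in F4/80high TAMs, by 1.18 ± 0.20 (adjusted p = 0.0146). Mcm6 no longer passed (adjusted p = 0.0646), and Ccne1, Tyms and Pcna remained called. In that fit the difference was 0.48 ± 0.49 for Mki67 (adjusted p = 0.505), -0.15 ± 0.36 for Ccnb2 (adjusted p = 0.783) and 0.39 ± 0.82 for Top2a (adjusted p = 0.75).

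Replicate 1 was often the highest array of its group. F4/80low replicate 1 was the highest array of its group in 29 of the 29 tested genes, where it was the highest in 35.7% of all genes. F4/80high replicate 1 was the highest of its group in 25 of the 29, and in 43.9% of all genes. PEC replicate 1 was the highest in 21 of the 29, and in 33.6% of all genes. The median level of the 25 later genes was 1.07, 0.34 and -0.17 on the F4/80high arrays, 2.38, -0.22 and -1.13 on the F4/80low arrays, and -1.56, -3.06 and -2.91 on the PEC arrays. That of the 10 replication genes was 2.91, 2.14 and 1.59 on the F4/80high arrays, 3.66, 1.74 and 1.28 on the F4/80low arrays, and 1.77, 1.40 and 1.55 on the PEC arrays. Of the 37 genes 34 were above background on F4/80low replicate 1 and 28 on each other F4/80low array, against 27 on PEC replicate 1, 20 on replicate 2 and 19 on replicate 3.

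F4/80low replicate 1 also led its group in genes of neutrophil precursors. Mpo, myeloperoxidase of the primary granules, was 7.06, 0.83 and -1.55 on the F4/80low arrays. Ngp, a neutrophil granule protein, was 8.96, 3.91 and 2.27, and Camp, cathelicidin, was 10.50, 5.88 and 3.21 on them. The summed neutrophil markers were 8353 on F4/80low replicate 1 and 2291 and 1875 on the others. Monocyte markers summed to 127, 66.3 and 37.9 on the F4/80low arrays, while T cell markers, at 29.1, 57.3 and 29.8, and NK cell markers, at 16.2, 34.5 and 28.5, were highest on replicate 2, as were fibroblast markers, at 15.0, 24.4 and 19.6. On the F4/80high arrays Camp was 2.25, -1.63 and -1.80. PEC replicate 1 had 1 of 4 erythroid markers above background, and the other PEC arrays had 0. The part of these cells in the cell cycle levels was not tested.

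Without F4/80low replicate 1 the comparison of that subset with PECs changed in composition. Then 11 genes were called higher in F4/80low TAMs than in PECs and 4 lower, where 21.4% and 27.7% of all genes were. The lower ones were Pcna, Mcm3 at -1.56 ± 0.30 (adjusted p = 0.00309), Cdca8 at -1.32 ± 0.37 (adjusted p = 0.0186) and Tpx2 at -0.73 ± 0.25 (adjusted p = 0.0417). Mki67 stayed higher at 3.64 ± 0.84 (adjusted p = 0.0075), Ccnb2 at 3.63 ± 0.48 (adjusted p = 0.000477) and Prc1 at 2.10 ± 0.34 (adjusted p = 0.00131). Ccnb1, Kif20a and Top2a were no longer called. Between the TAM subsets 10 genes (34.5%) were then called higher in F4/80high TAMs, where 16.9% of all genes were. They were the 4 above with Bub1b, Cdca8, Cenpe, Mcm3, Mcm4 and Tpx2. Cenpe was among them at 2.28 ± 0.21 (adjusted p = 0.000156).

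**Figure D4:**
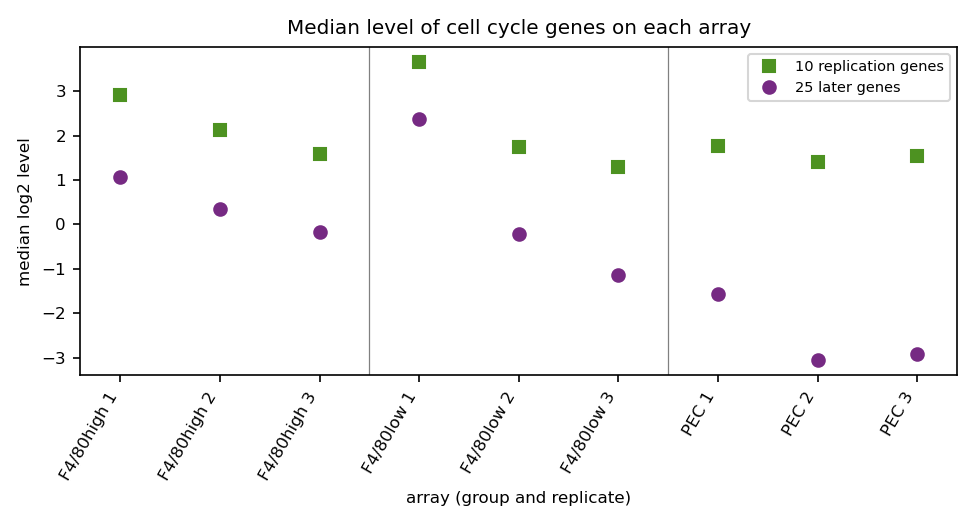
Squares give the median log2 level of the 10 replication genes and circles that of the 25 later genes on each array, with F4/80high TAMs, F4/80low TAMs and PECs from left to right. Heights are to be compared between arrays for one symbol and not between the symbols, since probes differ in brightness. F4/80low replicate 1 is the highest array for both sets, at 3.66 and 2.38, and the PEC arrays are the lowest for the later genes.

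Other lists of cell cycle genes, outside the 37, were counted in the same comparisons, to be read against the 25% higher and 28% lower of all genes in F4/80high TAMs and the 22.7% and 29.2% in F4/80low TAMs. Of 19 tested regulators and E2F factors, 6 were called higher and 4 lower in F4/80high TAMs than in PECs (31.6% and 21.1%), and 3 higher and 4 lower in F4/80low TAMs (15.8% and 21.1%). Ccnd1, cyclin D1, which links growth factor signals to the cycle, was 3.94, 3.87 and 4.0 on the F4/80high arrays, 0.52, 1.21 and 0.79 on the F4/80low arrays, and 0.93, 1.58 and 1.55 on the PEC arrays. It was higher in F4/80high TAMs than in PECs by 2.59 ± 0.24 (adjusted p = 2.53e-05) and than in F4/80low TAMs by 3.10 ± 0.24 (adjusted p = 3.41e-05). Its partner kinase Cdk6 was higher in F4/80high TAMs by 1.62 ± 0.28 against PECs (adjusted p = 0.00109) and by 1.18 ± 0.28 against F4/80low TAMs (adjusted p = 0.0107). Mybl2, B-Myb, the MuvB partner for the mitotic genes, was higher than in PECs by 2.38 ± 0.48 in F4/80high TAMs (adjusted p = 0.00266) and by 2.82 ± 0.48 in F4/80low TAMs (adjusted p = 0.00121).

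Of 19 inhibitors and pocket proteins, 6 were higher and 5 lower in F4/80high TAMs than in PECs (31.6% and 26.3%), and 8 higher and 4 lower in F4/80low TAMs (42.1% and 21.1%). Cdkn1c, the inhibitor p57, fell by 3.24 ± 0.48 in F4/80high TAMs (adjusted p = 0.000478) and by 2.99 ± 0.48 in F4/80low TAMs (adjusted p = 0.000939). Cdkn2b, the inhibitor p15, was higher by 2.57 ± 0.43 (adjusted p = 0.000969) and 2.15 ± 0.43 (adjusted p = 0.00307). The stress gene Gadd45b was higher by 3.91 ± 0.16 (adjusted p = 3.34e-07) and 2.57 ± 0.16 (adjusted p = 5.0e-06).

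Of 27 other replication genes tested, 4 were higher and 4 lower in F4/80high TAMs than in PECs (14.8% each), and 4 higher and 7 lower in F4/80low TAMs (14.8% and 25.9%), all below the shares of all genes, with median log2 fold changes of -0.21 in each. Cdt1, which loads the helicase, fell by 1.16 ± 0.20 in F4/80high TAMs (adjusted p = 0.00108) and by 0.55 ± 0.20 in F4/80low TAMs (adjusted p = 0.0424). Uhrf1, which carries DNA methylation through replication, was higher by 2.15 ± 0.68 (adjusted p = 0.024) and 1.94 ± 0.68 (adjusted p = 0.0373). Rpa2, of the single-strand binding complex, fell by 1.02 ± 0.39 in F4/80high TAMs (adjusted p = 0.0492), and the difference was -0.24 ± 0.39 in F4/80low TAMs (adjusted p = 0.624).

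Of 50 further mitosis genes 28 were tested. Of these, 5 were higher and 0 lower in F4/80high TAMs than in PECs, and 6 higher and 1 lower in F4/80low TAMs, with median log2 fold changes of 0.51 and 0.84. The 17.9% and 21.4% called higher did not exceed the shares of all genes. Pttg1, securin, was 6.84, 7.06 and 7.04 on the F4/80high arrays, 4.38, 5.39 and 4.90 on the F4/80low arrays, and 4.18, 4.39 and 4.56 on the PEC arrays. It was higher in F4/80high TAMs by 2.61 ± 0.25 against PECs (adjusted p = 3.41e-05) and by 2.09 ± 0.25 against F4/80low TAMs (adjusted p = 0.000351). Hmmr, a spindle and hyaluronan receptor protein, was higher by 0.78 ± 0.25 in F4/80high TAMs (adjusted p = 0.0263) and by 1.03 ± 0.25 in F4/80low TAMs (adjusted p = 0.00765), against PECs. Of 10 tested damage checkpoint and repair genes 3 were higher and 2 lower in F4/80high TAMs, and 3 higher and 0 lower in F4/80low TAMs. Fanca, of the Fanconi anaemia core complex, was higher by 3.23 ± 0.41 (adjusted p = 0.00018) and 1.46 ± 0.41 (adjusted p = 0.0154).

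The count of cell cycle genes called against PECs depended on which arrays and probes entered. Without any filter on dim probes, 14 of the 37 genes were called higher in F4/80high TAMs and 0 lower, where 11.3% of all genes were called higher and 11.5% lower. In F4/80low TAMs 15 of the 37 were then called higher and 1 lower, where 26.4% of all genes were called higher and 13% lower. In F4/80high TAMs against F4/80low TAMs 3 of the 37 were then called higher and 0 lower, where 6.81% of all genes were called higher and 5.84% lower. Without PEC replicate 3, 10 of the 29 genes were called higher in F4/80high TAMs (34.5%, all genes 19.6%), and 8 higher and 1 lower in F4/80low TAMs (27.6% higher, all genes 17.4%). Without PEC replicate 2, 12 were called higher in F4/80high TAMs (41.4%, all genes 21.1%), and 7 higher and 1 lower in F4/80low TAMs (24.1% higher, all genes 18.6%). Without F4/80high replicate 1, 10 were called higher and 1 lower in F4/80high TAMs (34.5% higher, all genes 21%). None of the 39 calls in the 3 comparisons changed sign under any setting tried. The calls were selected for their difference on these same arrays, so the unchanged signs are a description only.

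**Figure D5:**
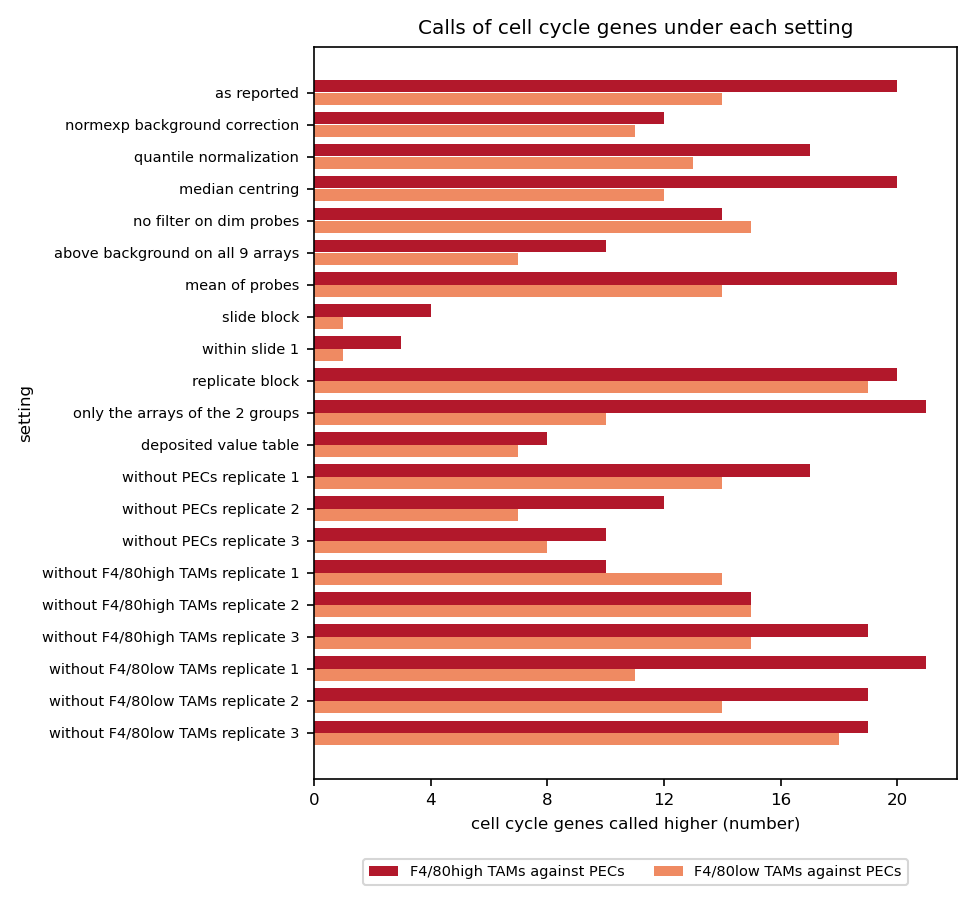
Bars give the number of the 37 cell cycle genes called higher than in PECs under each setting, dark for F4/80high TAMs and light for F4/80low TAMs. The first pair, 20 and 14, is as reported, and the slide settings give the fewest calls, 4 or fewer. The deposited value table holds only 11 of the genes.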

How the data were processed

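The 9 arrays were read as deposited scanner output. Per the file headers, the authors' spot intensity was background-subtracted and detrended within each array by Agilent Feature Extraction 10.5.1.1, which the submitters' processing notes also name, on 1-colour (Cy3) arrays with probe coordinates on mm9. Log2 values of 9703 spots are given in the deposited value table; their column medians were 8.26 to 8.35, and they correlated with the log2 scanner intensity of the same arrays at 0.960 to 0.978. Its filter, scale factor and centring are not given in the sources used here, so it served as an alternative.

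Control spots and outlier spots were left out, and spots of a probe were averaged. The log2 intensity minus the array's 75th percentile was fitted by group over all 9 arrays with limma 3.58.1 in R 4.3.3 (lmFit, eBayes, two-sided, Benjamini-Hochberg over all genes kept). Errors after ± are standard errors from this fit. The 37 members were found by the gene name in the files. Other probes took the RefSeq symbol where their accession matched, and the name in the files otherwise. An accession matched for 26413 of 55681 probes, members included. The procedure was tested on simulated data. The same-numbered TAM arrays correlated in their residuals above 0.1 in each of the 3 pairs. TAM and PEC arrays of the same number correlated at -0.096 to 0.0912. Some TAM and PEC arrays of unlike number passed 0.1 as well, up to 0.133. The labels give no pairing, so taking the replicate number to pair the TAM subsets only is an assumption.

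The members and lists were chosen with earlier results of these data known. All 37 members are described by role. Of each further cell cycle list at most 3 genes are named, those with the largest absolute change past the test in F4/80high TAMs against PECs and above background on all arrays of both groups. Alternatives were the background correction, normalisation, probe filter, probe choice, slide, replicate block, samples fitted, value table and each array left out.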

Additional observations from a re-analysis of the deposited data

How the results depend on the processing

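The counts of calls against PECs moved by over 1.5 times under several settings. In F4/80high TAMs, 13 of the 29 genes were called with normexp background correction and 10 where a probe had to be above background on all 9 arrays, which tested 19 genes. With the slide as a block 4 were called and within slide 1 alone 3, and the deposited value table, which holds 11 of them, called 9. For F4/80low TAMs against PECs 8 were called with the filter on all 9 arrays, 2 with the slide as a block, 2 within slide 1 and 8 in the value table. With normexp 41.4% of the 29 were called higher and 3.45% lower in F4/80high TAMs, where 22.1% and 30.6% of all genes were. With the filter on all 9 arrays it was 52.6% and 0%, beside 24.1% and 28.5%. For F4/80low TAMs that filter gave 36.8% and 5.26%, beside 19.9% and 31.5%. The value table gave 72.7% and 9.09% in F4/80high TAMs, beside 33.5% and 44.6%. In F4/80low TAMs it gave 63.6% and 9.09%, beside 34.4% and 41.5%. Leaving out 1 array gave 10 to 21 calls for F4/80high TAMs and 8 to 19 for F4/80low TAMs against PECs, and 3 to 10 between the TAM subsets. Over all genes, leaving out 1 array gave 7036 to 9027, 6610 to 8563 and 3923 to 5510 calls in these comparisons. The slide block gave 5631 and 4904 calls over all genes against PECs, and slide 1 alone 5341 and 4492. No filter on dim probes gave 14388 for F4/80low TAMs. With the replicate block, 20 genes of the 29 were called in each comparison with PECs and 5 between the TAM subsets, where Mcm6 was lost and Bub1b and Rrm2 gained. Fitted on TAM arrays alone, a setting chosen after seeing the data, the replicate block gave 4. Over all settings the 39 calls kept their side of the threshold in 571 of 738 cases, lost it in 167 and changed sign in 0. As said above, the unchanged signs are a description only. The cause of these losses was not tested, apart from the fewer genes or arrays that some settings hold.

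Genes that were not called changed sign in several settings. In the F4/80high comparison with PECs, quantile normalisation turned Cdca8 to 0.0066 and median centring turned Mcm4 to -0.0087. Both slide settings turned Mcm2 to 0.36 and Rrm2 to -0.20. Leaving out 1 array at a time gave ranges on both sides of 0, from -0.55 to 0.0060 for Mcm2, from -0.098 to 0.39 for Mcm4 and from -0.41 to 0.17 for Cdca8. In the F4/80low comparison with PECs, quantile normalisation turned Mcm2 to -0.059 and Mcm4 to 0.095, and median centring turned Mcm2 to -0.42, Mcm6 to -0.0052 and Ccne1 to -0.092. Both slide settings turned Tpx2 to 0.17. Leaving out 1 array gave -0.55 to 0.69 for Mcm2, -0.67 to 0.15 for Mcm4, -0.15 to 1.02 for Ccne1, -1.32 to 0.58 for Cdca8, -0.73 to 0.29 for Tpx2 and -0.22 to 1.32 for Cenpe. Between the TAM subsets, median centring turned Ccnb2 to 0.17, and leaving out 1 array gave -0.67 to 0.71 for Ccnb2 and -0.30 to 1.57 for Mki67. In each range against PECs the lowest value came without the TAM replicate 1 of that subset and the highest without its replicate 3. Signal over background limits the PEC side, where 10 of the 29 genes were below background on at least 1 array.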
